A study of Mus musculus with 8 samples.

Results

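Germline genes encode the machinery of meiosis and of germ cell identity, and pluripotency genes maintain the early embryo; neither group has a known function in hepatocytes, the main cell type of the liver. The methylation of 42 such genes was described in hepatocytes of mid-aged and young mice. They are 38 germline genes, grouped here by function, and the 4 pluripotency genes Zfp42, Nanog, Pou5f1 and Dppa3. Reads were counted at each CpG with both strands summed, and a CpG was tested if it had 5 or more reads in every mouse. A promoter was the interval from 1500 bases upstream to 500 bases downstream of the start site of 1 transcript per gene, and the gene body was the rest of the gene. Of the 897285 tested CpGs, 969 lay in these genes, 521 in promoters and 448 in gene bodies, and 37 of the 42 genes held at least 1 of them. A promoter or gene body was given a level, the mean percent of methylated reads over its tested CpGs, if it held 3 or more of them. This left 28 of the 12477 promoters and 25 of the 13838 gene bodies measured in all, and 18 of the 10006 genes that had both.

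The data come from reduced representation bisulfite sequencing (RRBS), which reads DNA fragments cut at CCGG and so covers CpG-rich stretches well and the rest of the genome thinly. Hepatocytes were isolated by perfusion from female C57Bl6/J mice on control diet, 4 of them mid-aged at 40 weeks and 4 young at 10 weeks, and each mouse gave 1 library. The labels name no mutation or transgene for either age. Read numbers summed over CpGs were 46321447 to 118395064 per library, where a read counts at each CpG it covers. The median read number at member promoter CpGs was 43 to 99 in mid-aged and 25 to 51 in young mice, so the young values rest on fewer reads. Of the 20 hepatocyte markers examined, 5 had a measured promoter, all of them under 20% methylated. Of the markers of other liver cells, promoters were under 20% in 1 of 3 measured for Kupffer cells and leukocytes, 1 of 2 for sinusoidal endothelium, 2 of 5 for stellate cells and 2 of 5 for cholangiocytes, and at 80% or more only in Adgre1, a macrophage gene (87.2%), and Pecam1, an endothelial gene (91.9%). No CpG, promoter or gene body of these lists was called between the ages. Over all features, 0.163% of CpGs, 0.016% of promoters and 0.694% of gene bodies were called, and each list held only 142 to 303 tested CpGs. RNA was not analysed here, so whether the genes were silent was not checked.

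In mammals, some germline genes with CpG-rich promoters are methylated by DNMT3B around implantation. These genes remain methylated and silent in somatic cells, and lose this methylation in primordial germ cells. The polycomb-type complex PRC1.6 takes part in this repression in the mouse embryo. Its subunit E2F6 recognises TCCCGC and its subunits MGA and MAX recognise the E-box CACGTG. Most other CpG-rich promoters stay unmethylated in every cell type.

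The sequences below show the contrast that runs through these genes, with the tested CpGs in capitals. All are 5′ to 3′ on the strand of the gene, in mm10 (GRCm38). Slc25a31, a testis ADP/ATP carrier, and Rpl10l, a testis-expressed copy of a ribosomal protein gene, were methylated directly upstream of the start site. Smc1b, a meiotic cohesin subunit, had little methylation in the same place, and Mei4, a factor for meiotic DNA breaks, was almost free of it. The stretch of Smc1b lies between its start site and that of the neighbouring gene Ribc2, 114 bases upstream.
Slc25a31, chr3:40708665-40708854, plus strand: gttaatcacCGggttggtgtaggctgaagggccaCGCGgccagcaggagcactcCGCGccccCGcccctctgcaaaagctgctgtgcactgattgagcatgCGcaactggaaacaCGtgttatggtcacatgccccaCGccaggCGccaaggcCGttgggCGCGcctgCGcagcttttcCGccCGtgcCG
Rpl10l, chr12:66284402-66284511, minus strand: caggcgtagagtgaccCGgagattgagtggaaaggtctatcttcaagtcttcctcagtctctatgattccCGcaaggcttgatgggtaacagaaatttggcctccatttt
Smc1b, chr15:85131965-85132059, minus strand: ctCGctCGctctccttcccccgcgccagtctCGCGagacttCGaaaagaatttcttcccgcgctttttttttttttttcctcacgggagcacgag
Mei4, chr9:81863600-81863669, plus strand: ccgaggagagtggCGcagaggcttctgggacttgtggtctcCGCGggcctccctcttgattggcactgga
Over these stretches, the 17 tested CpGs of Slc25a31 had 68.0% to 98.5% methylated reads (mean of 8 mice) with a median of 95.2%, and the 2 of Rpl10l had 93.1% and 95.2%. The 5 tested CpGs of Smc1b had 0% to 13.9%, and the 3 of Mei4 had at most 0.595%.

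Most member promoters were highly methylated in both ages. Of the 28 measured, 21 stood at 80% or more, 3 lay between 20% and 80% and 4 at 20% or less, and their median was 87.97%. Over all 12477 promoters the median was 1.67% and 627, or 5.03%, reached 80%. At the level of single CpGs, 328 of the 521 tested promoter CpGs had a mean of 80% or more. Within the 21 highly methylated promoters, 316 of 384 tested CpGs did, none was at 20% or less, and the lowest stood at 42.7%.

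**Figure D1:**
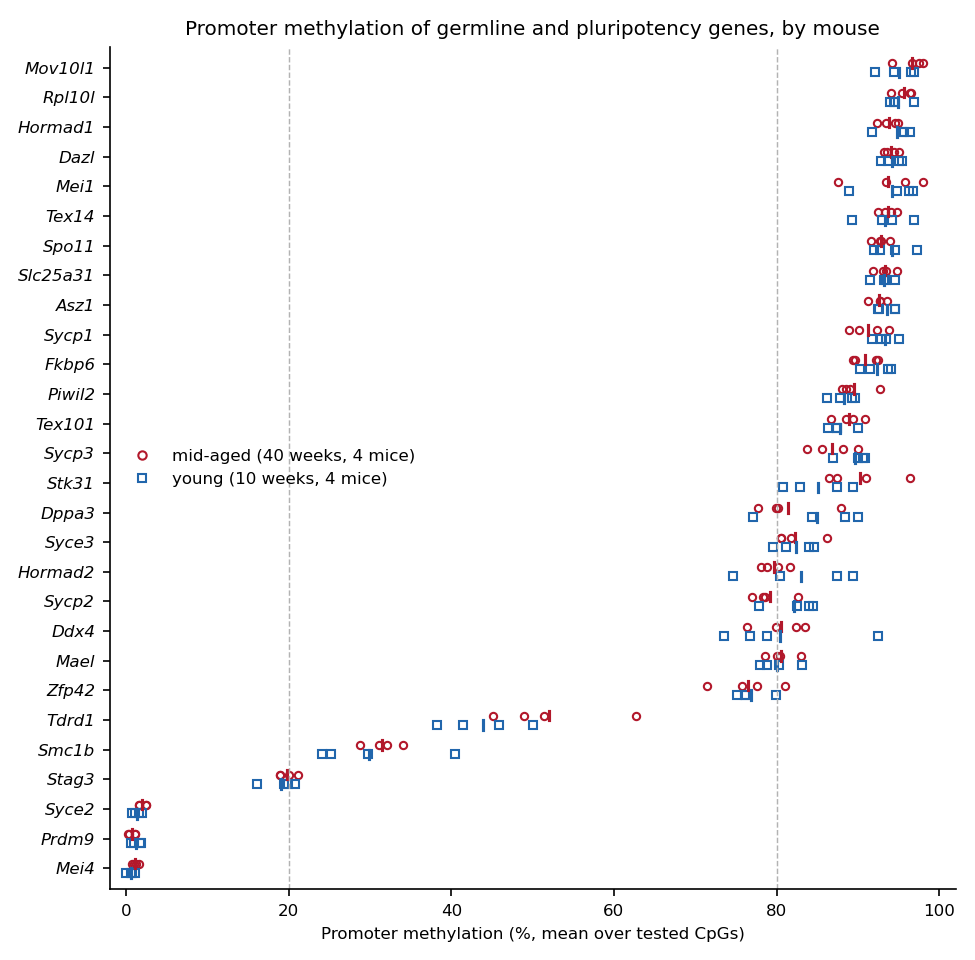
Promoter methylation (percent, x axis, mean over tested CpGs) of the 28 member genes with a measured promoter, ordered by level, with 1 point per mouse (circles, 4 mid-aged; squares, 4 young), a short bar at each group mean, and dashed lines at 20% and 80%. The 21 genes from Mael upwards lie at 80% or more on average, Zfp42, Tdrd1 and Smc1b lie between the lines, and the points of both ages overlap in every gene.

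Promoters were next compared within classes of CpG density. A promoter was classed as high density if any 500-base window in it had an observed over expected CpG ratio above 0.75 and a GC content of 55% or more, as low density if no window exceeded a ratio of 0.48, and as intermediate otherwise. Among high density promoters, 11 of 16 members (68.8%) were at 80% or more, against 52 of all 9350 (0.556%). The 52 promoters thus include 11 members, a further 3 from the list of other germline genes (Adad1, Msh4 and Taf7l) and 38 genes of neither list. Among intermediate density promoters, 10 of 12 members were at 80% or more, against 248 of all 2413 (10.3%). No member promoter of low density was measured. The members were chosen as genes with this kind of promoter, so these shares describe the list and are no test of it.

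**Figure D2:**
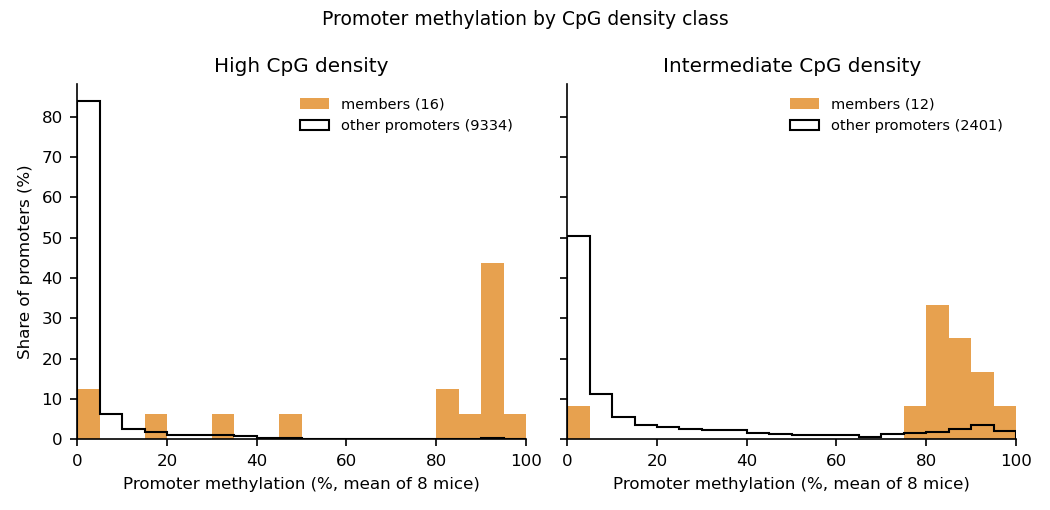
Share of promoters (percent, y axis) by promoter methylation (percent, x axis, mean of 8 mice, bins of 5 percentage points) for high density (left) and intermediate density promoters (right), with members filled and other promoters outlined. Members gather above 75%, whereas most other promoters of either class lie in the lowest bin.

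The highest promoter belonged to the piRNA pathway, in which small RNAs guide the silencing of transposons in germ cells. Mov10l1, a helicase for piRNA precursors, had promoter levels of 98.1%, 96.7%, 97.5% and 94.2% in mid-aged and 96.9%, 92.1%, 94.5% and 96.6% in young mice. The groups overlapped, and all 7 of its tested CpGs exceeded 92%. Its mean of 95.82% was close to the 95.28% of Rpl10l. With a minimum of 10 reads per CpG, Mov10l1 had no promoter level and Spo11 was the highest at 98.45%. Of the 7 genes of this pathway with a measured promoter, 6 were at 80% or more: Mov10l1, Asz1, Fkbp6, Piwil2, Ddx4 and Mael. Ddx4, the helicase of germ granules also known as Vasa, had 79.9%, 76.3%, 83.5% and 82.4% in mid-aged and 92.4%, 78.8%, 73.5% and 76.7% in young mice, with means of 80.5% ± 3.18 in mid-aged and 80.4% ± 8.35 in young mice (SD, n = 4 each). Young mouse 1 lay above all other mice. Mael, which acts in transposon silencing, had 83.04%, 78.6%, 80.5% and 80.003% in mid-aged and 78.01%, 83.2%, 78.8% and 80.3% in young mice over 37 CpGs. Its CpGs were uneven, with means between 42.7% and 98.6%, and with reads summed its level was 77.7%, under the limit of 80%.

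Tdrd1, a Tudor protein of germ granules, was the exception among the measured promoters of this pathway. Its promoter levels were 62.7%, 45.1%, 49.0% and 51.3% in mid-aged and 45.8%, 50.1%, 38.2% and 41.5% in young mice. Methylation dipped around the start site, where the 5 tested CpGs within 25 bases had 22.4% to 39.7%, against 86.5% at the farthest upstream CpG. Mid-aged mouse 1 was the highest here, and over the 3 CpGs downstream of the start site it had 80.7%, against 44.7%, 46.7% and 51.9% in the other mid-aged and 33.1%, 46.1%, 33.7% and 35.4% in the young mice. Over all CpGs with reads, summed, the promoter level was 75.7%, an alternative chosen after the values were seen.

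All 4 measured promoters of germ cell regulators were at 80% or more. Dazl, an RNA-binding protein that controls translation in germ cells, had 93.2%, 94.5%, 95.01% and 93.6% in mid-aged and 95.5%, 93.7%, 92.8% and 95.01% in young mice over 41 CpGs. Stk31, a germ cell protein with a kinase domain, had 86.5%, 90.98%, 96.4% and 87.4% in mid-aged and 80.7%, 87.5%, 82.8% and 89.4% in young mice, averaging 90.3% ± 4.50 in mid-aged and 85.1% ± 3.996 in young mice. Tex14, needed for the bridges between germ cells, and Tex101, a germ cell surface protein, had means of 93.5% and 88.3% over the 8 mice. The promoter window of Tex14, in which 13 of 103 CpGs were tested, also holds 2 start sites of Rad51c, the nearer 111 bases away. Germline copies of somatic genes also exceeded 90% in every mouse. Rpl10l had 95.4%, 96.5%, 94.1% and 96.4% in mid-aged and 93.9%, 96.9%, 94.5% and 94.5% in young mice. It averaged 95.6% ± 1.119 in mid-aged and 94.96% ± 1.304 in young mice, and Slc25a31 averaged 93.3% ± 1.17 in mid-aged and 93.2% ± 1.26 in young mice. The sources do not say how reads that match both Rpl10l and its parent gene were placed.

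Genes of the meiotic chromosome structure were mixed. The synaptonemal complex, the protein zipper between paired chromosomes, had 4 of 5 measured promoters at 80% or more. Its axial protein Sycp3 had 85.6%, 88.1%, 90.0% and 83.7% in mid-aged and 90.9%, 90.7%, 87.0% and 90.0% in young mice, so 2 of the young mice exceeded all mid-aged ones. Sycp1, the transverse filament, averaged 91.3% ± 2.18 in mid-aged and 93.3% ± 1.39 in young mice. The central element gene Syce2 differed from the others, with 1.56%, 2.47%, 1.61% and 2.39% in mid-aged and 1.53%, 1.94%, 0.672% and 1.1% in young mice over 31 CpGs, all of them in its first intron. Of the chromosome axis genes, Hormad1 had 94.6%, 92.3%, 93.4% and 94.9% in mid-aged and 95.5%, 95.6%, 96.4% and 91.7% in young mice. Hormad2 had 78.02%, 80.1%, 78.8% and 81.7% in mid-aged and 80.4%, 87.4%, 74.6% and 89.4% in young mice, so the young mice lay on both sides of the mid-aged ones. Sycp2, an axial element protein, had 76.97%, 78.6%, 82.6% and 78.4% in mid-aged and 83.99%, 84.5%, 77.8% and 82.5% in young mice.

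The cohesin genes Stag3 and Smc1b changed level across the start site, between positions -386 and 245 in Stag3 and between -53 and 51 in Smc1b, where no CpG was tested. Stag3, a meiotic cohesin subunit, averaged 4.62% over 20 upstream CpGs and 93.3% over 4 CpGs in its first intron, and upstream was lower in 8 of 8 mice (difference -88.7 ± 4.22 percentage points, SD). The upstream stretch contains 2 start sites of the neighbouring gene Gpc2, 521 and 561 bases away. Smc1b averaged 6.60% over 15 upstream CpGs and 48.8% over 20 downstream CpGs, again lower upstream in 8 of 8 mice, and Ribc2 starts 114 bases upstream. The promoter levels, averages over both sides, were for Stag3 20.03%, 21.2%, 18.9% and 18.96% in mid-aged and 16.04%, 19.4%, 20.8% and 19.9% in young mice. For Smc1b they were 34.01%, 31.1%, 32.1% and 28.7% in mid-aged and 24.1%, 40.5%, 25.2% and 29.8% in young mice, with young mice 1 and 2 as the lowest and the highest of all 8. Such averages depend on which CpGs enter. The mean over all mice was 19.4% for Stag3, but 10.2% with reads summed, 11.5% with the start site at the end of the gene, 13.1% with a minimum of 10 reads and 30% in a window of 500 bases on both sides, which is above the limit of 20%. For Smc1b it was 30.7%, but 44.1% with a minimum of 10 reads and 41.4% with reads summed.

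Of the recombination genes, Spo11, the enzyme that cuts DNA in meiosis, had a promoter level of 92.8% ± 0.934 in mid-aged and 94.2% ± 2.35 in young mice. Mei1, which acts in the same step, had 87.5%, 95.8%, 93.5% and 98.1% in mid-aged and 88.9%, 96.8%, 96.3% and 94.8% in young mice, but from 4 CpGs between positions -554 and -516 only. With the start site placed at the 5′ end of the gene, at position -12480, its level was 12.8%. Mei4 and Prdm9 were nearly unmethylated. Mei4 had 1.23%, 1.55%, 1.01% and 0.694% in mid-aged and 0%, 0.741%, 1.122% and 0.556% in young mice. Prdm9, which marks recombination hotspots, had 0.347%, 1.14%, 0.192% and 1.06% in mid-aged and 0.641%, 1.84%, 1.68% and 0.954% in young mice. Its 18 tested CpGs lie at positions -1459 to -834, around another annotated start site of the gene at -1017.

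Of the pluripotency genes, Zfp42, the embryonic stem cell marker also known as Rex1, had 77.6%, 81.1%, 71.4% and 75.7% in mid-aged and 79.98%, 76.2%, 76.2% and 75.2% in young mice. Its 11 tested CpGs are all upstream, from position -905 to -428, with means of 60.1% to 92.8%. Dppa3, which protects maternal methylation in the zygote, had 80.1%, 87.98%, 77.7% and 79.9% in mid-aged and 77.05%, 89.99%, 88.5% and 84.4% in young mice over 6 CpGs, with the lowest and the highest value both in young mice. Pou5f1, which encodes OCT4, had too few reads for a promoter level. Of its summed promoter reads, 68.1% of 248 were methylated in mid-aged and 72.2% of 255 in young mice, with 36.4% to 80.8% in single mice. Its gene body averaged 63.5% ± 2.31 in mid-aged and 62.6% ± 2.42 in young mice. Nanog had no tested CpG and no read in its promoter.

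In all, 14 members had no promoter level. Syce1, Tex15 and Nanog had no promoter read, and Tex19.2, Piwil1, Piwil4 and Rec8 had at most 36 in all mice together. The others were added after their values were seen, as summed reads without the minimum, where intervals and shares cover counting error only. Tex19.1, which represses retrotransposons in germ cells, had 95.2% of 578 reads methylated in mid-aged and 94.7% of 318 in young mice, and the lowest mouse had 89.5%. Dpep3, Brdt and Tdrd9 were also high, with 96.4%, 93.4% and 92.8% in mid-aged and 97.5%, 94.9% and 88.2% in young mice. Tdrkh, a Tudor protein of the piRNA pathway, was low, with 2.78% of 396 reads in mid-aged and 1.31% of 306 in young mice. Dmc1, the meiotic recombinase, had 37.1% of 140 reads in mid-aged and 77.7% of 112 in young mice, but mid-aged mouse 1 alone held 58 of those 140 reads at 3.45% (95% Wilson interval 0.951% to 11.7%), and the other 3 mid-aged mice had 52.9% to 67.4%. Single young mice had 51.3% to 96.3%, so the ages overlapped. Tex19.2, Tdrkh, Dmc1, Dpep3 and Nanog held no tested CpG anywhere in the gene.

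Gene bodies were methylated too, with 17 of 25 at 80% or more and a median of 85.0%, against 38.99% of all 13838 gene bodies at 80% or more and a median of 70.4%. Promoter and gene body were compared within each mouse with limma, a moderated linear model, for the 18 members with both. The promoter was higher in 6 of 18, which 6.21% of all 10006 genes showed, lower in 9, which 86% of all genes showed, and not called in 3 (adjusted p of 0.05 or more), which 7.81% of all genes showed. Mei4, Stag3 and Tdrd1 followed the common pattern of a promoter below its gene body, with differences of -83.3 (95% interval -85.5 to -81.2), -71.5 (-73.9 to -69.1) and -38.3 (-42.8 to -33.7) percentage points. Mei1, Dppa3, Spo11, Tex14 and Mov10l1 had promoters 14.9, 14.4, 9.66, 8.97 and 7.52 points above their gene bodies, each in 8 of 8 mice. The promoter level of Mei1 rests on 4 CpGs, and its difference was 6.14 points with reads summed. Its gene body, as defined here, spans the stretch after its other start site at position -12480. With a minimum of 10 reads per CpG the difference of Dppa3 was -0.36 points and not called. Zfp42, Syce2 and Syce3 had promoters below, with differences of -15.8, -13.2 and -11.6 points, in 8 of 8 mice.

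**Figure D3:**
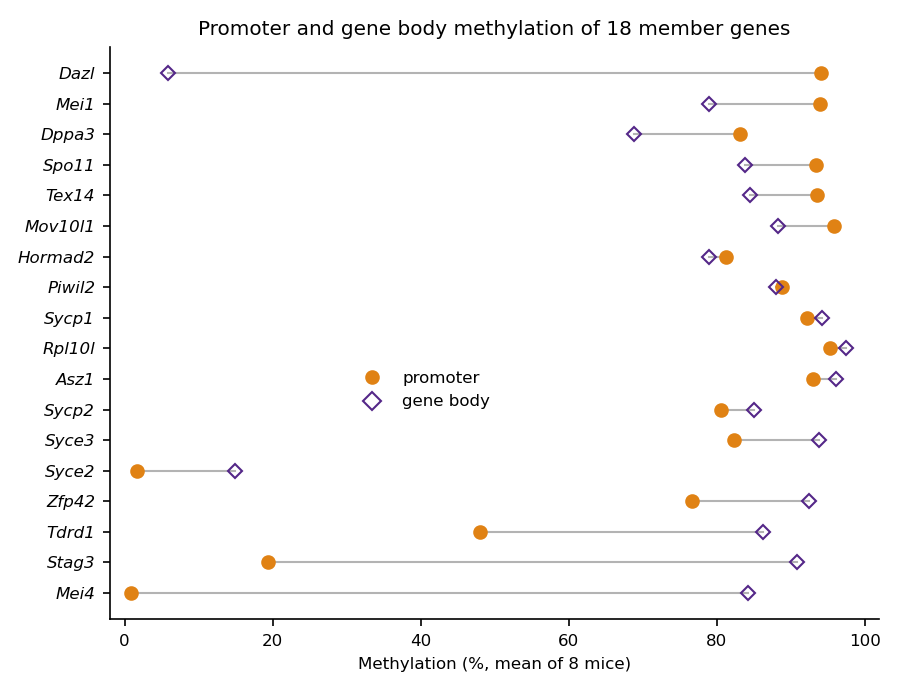
Methylation (percent, x axis, mean of 8 mice) of promoter (filled circle) and gene body (open diamond) for the 18 members with both, ordered by promoter minus gene body. Dazl stands alone at the top, with 94.2% in the promoter and 5.92% in the gene body, and Mei4 at the bottom has 0.864% and 84.2%.

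Dazl had the largest difference of the 18, 88.2 points (95% interval 86.5 to 90.0), positive in 8 of 8 mice. Its gene body CpGs were all in the first intron, from position 507 to 894, and averaged 7.15%, 8.04%, 8.08% and 5.16% in mid-aged and 6.17%, 4.36%, 3.02% and 5.37% in young mice. The step was narrow. All 41 tested CpGs up to position 488 had means of 68.5% or more with a median of 96.6%, and the 28 from position 507 on had 27.5% or less with a median of 2.44%. From position 576 on, none of 21 exceeded 8.29%. RefSeq also lists a predicted Dazl transcript that starts at position 468, counted from the same start site as the CpGs. A stretch of the intron just before that start, and 30 bases after the step, are shown with tested CpGs in capitals (minus strand of chromosome 17).
Dazl before the step, chr17:50293170-50293256: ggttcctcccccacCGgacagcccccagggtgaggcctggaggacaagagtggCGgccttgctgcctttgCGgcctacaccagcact
Dazl after the step, chr17:50293084-50293113: ggccaCGtgcaCGgcctgggCGtcaCGtga
The 3 CpGs before the step had 76.8% to 94.6% and the 4 after it 6.31% to 14.2%. The second stretch contains the E-box CACGTG 2 times, at positions 526 and 546.

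**Figure D4:**
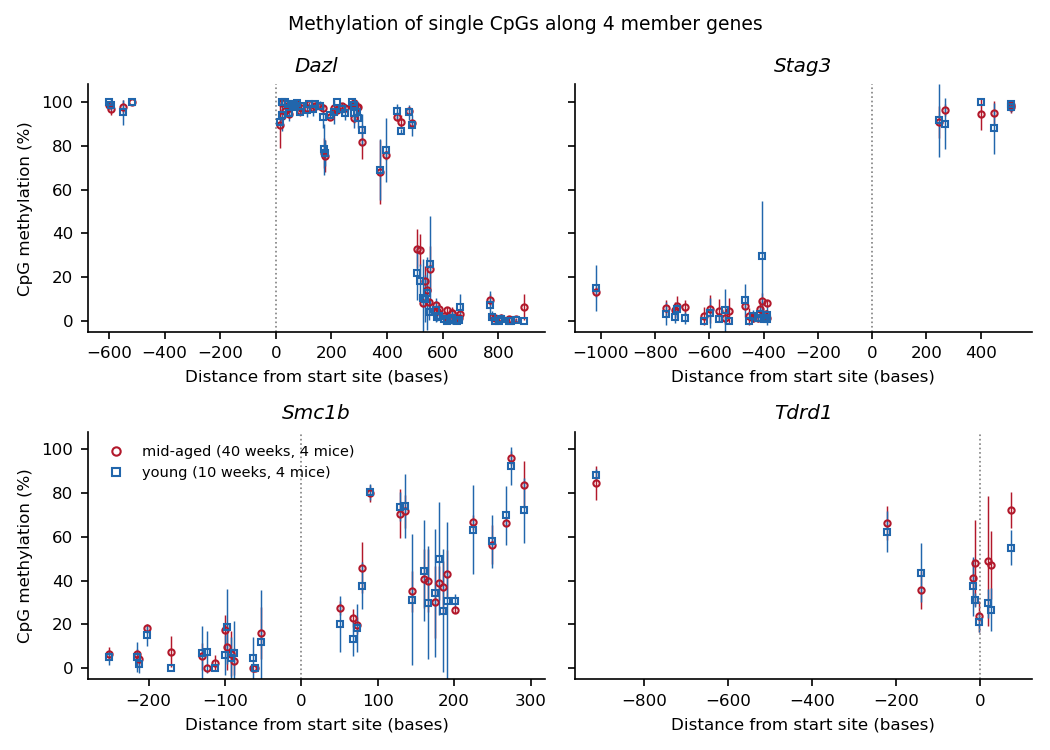
Methylation of single tested CpGs (percent, y axis) by distance from the start site (bases, x axis; dotted line, start site) in Dazl, Stag3, Smc1b and Tdrd1, as mean and SD of 4 mid-aged (circles) and 4 young mice (squares). Dazl drops between positions 488 and 507, Stag3 and Smc1b change level across the start site, and Tdrd1 dips at it.

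Motifs were searched on both strands from 250 bases before to 50 bases after each start site. The E-box CACGTG was found in 14 of 42 members (33.3%) and in 7.70% of all 21911 protein-coding genes, in high density promoters in 9 of 18 members (50%) and 10.8% of all, and in intermediate density promoters in 5 of 20 members (25%) and 7.58% of all. TCCCGC was found in 15 of 42 members (35.7%) and 25.2% of all genes, and in high density promoters in 13 of 18 members (72.2%) and 42.4% of all. In intermediate density promoters the order was the other way round, with 2 of 20 members (10%) and 19.8% of all. None of the 4 low density members held either motif. The CpG of an E-box was tested in 3 members, which are shown with the motif in capitals because its CpG had the lowest level of all tested CpGs in each of these promoters (plus strand).
Stk31, chr6:49395466-49395505: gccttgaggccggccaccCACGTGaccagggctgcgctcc
Slc25a31, chr3:40708760-40708800: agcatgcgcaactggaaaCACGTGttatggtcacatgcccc
Hormad1, chr3:95559602-95559642: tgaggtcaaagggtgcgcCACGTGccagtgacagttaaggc
In Slc25a31 the E-box CpG had 56.7%, 66.9%, 78.4% and 70.3% in mid-aged and 61.7%, 68.7%, 77.2% and 63.9% in young mice, from 57 to 212 reads, while the median of the other 43 tested CpGs was 95.3%. In Hormad1 it had 87.5%, 58.9%, 50% and 66.7% in mid-aged and 81.2%, 91.7%, 66.7% and 58.3% in young mice, from 9 to 69 reads, while the other 13 had a median of 96.0% and none was under 92.7%. In Stk31 it had 66.7%, 67.3%, 70.3% and 57.1% in mid-aged and 0%, 46.6%, 64% and 64% in young mice, from 6 to 58 reads, and the lowest of the other 8 stood at 74.7%. This order was noticed after the values were seen. In highly methylated promoters of genes outside the list, 7 E-box CpGs were tested, with a median of 59.7% and a median difference of -36.6 points from the other CpGs of their promoter, and 3 of them were the lowest of theirs. The CpG of TCCCGC was tested in 5 members, at 79.6% to 96.4%, and was the lowest of its promoter in none.

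No member was called between the ages. At single CpGs, tested with a moderated quasi-binomial model of the read counts, 0 of 969 member CpGs were called (Benjamini-Hochberg adjusted p under 0.05 over all tested CpGs, a difference of 5 percentage points and a variance within each age under 0.05), while 0.163% of all 897285 were. The lowest adjusted p of a member CpG was 0.129. At an unadjusted p under 0.05 there were 67 (6.91%, 31 of them higher in mid-aged mice), against 9.09% of all CpGs, and limma on M values, the log2 ratio of methylated to unmethylated reads, also called 0, against 0.0254% of all. The mean was higher in mid-aged mice at 498 of the 969.

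Of the 28 promoters, limma called 0, against 0.016% of all 12477, with 0 at an unadjusted p under 0.05 against 9.02% of all. In none of the 28 did the ages fail to overlap, against 6.21% of all promoters. The mean was higher in mid-aged mice in 14 of 28, against 59.8% of all promoters, and in 15 of 25 gene bodies, against 60.2% of all gene bodies. The differences ran from -3.54 to 8.13 percentage points with a median of 0.0347, and 22 lay within 2 points of 0. The 95% interval lay within 5 points of 0 for 17 promoters. For the other 11 a larger difference was within the interval.

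The largest positive promoter differences were those of Tdrd1, Stk31 and Smc1b. Tdrd1 was 8.13 points higher in mid-aged mice (95% interval -1.20 to 17.5, adjusted p = 0.613), with 2 of the 4 mid-aged mice inside the span of the young. Stk31 was 5.195 points higher (-0.994 to 11.4, adjusted p = 0.619), and Smc1b 1.59 points higher (-6.25 to 9.44, adjusted p = 0.917). The largest negative differences were those of Dppa3 with -3.54 (-11.0 to 3.89, adjusted p = 0.793), Hormad2 with -3.29 (-10.4 to 3.84, adjusted p = 0.800) and Sycp2 with -3.06 points (-7.56 to 1.44, adjusted p = 0.692). None of these passed the test, and each interval contains 0. The sizes depended on single mice. Tdrd1 was 4.57 points higher without mid-aged mouse 1 and 3.27 with reads summed, and Stk31 3.165 points higher without mid-aged mouse 3. Smc1b ran from -0.325 without young mouse 1 to 5.12 without young mouse 2, Dppa3 from -6.18 without young mouse 1 to -1.86 without young mouse 2, and Hormad2 from -6.08 without young mouse 3 to -1.14 without young mouse 4.

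Of the 25 gene bodies, limma also called 0, against 0.694% of all 13838, with 5 at an unadjusted p under 0.05 (20%) against 11.9% of all. The lowest adjusted p was that of Piwil2, a PIWI protein that binds piRNAs, with 87.5%, 91.9%, 91.0% and 91.2% in mid-aged and 86.2%, 83.5%, 85.0% and 87.6% in young mice. Its groups overlapped by the values of mid-aged mouse 1 and young mouse 4, and the difference was 4.85 points (95% interval 1.96 to 7.73, adjusted p = 0.170). Mei4 was 4.71 points (0.741 to 8.68), Dazl 2.38 (0.384 to 4.37), Tdrd1 2.07 (0.326 to 3.81) and Asz1 1.84 (0.473 to 3.21) higher in mid-aged mice, at adjusted p of 0.342, 0.340, 0.342 and 0.280. In Tdrd1 and Asz1 the ages did not overlap, which makes 2 of 25 gene bodies (8%) against 8.26% of all.

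**Figure D5:**
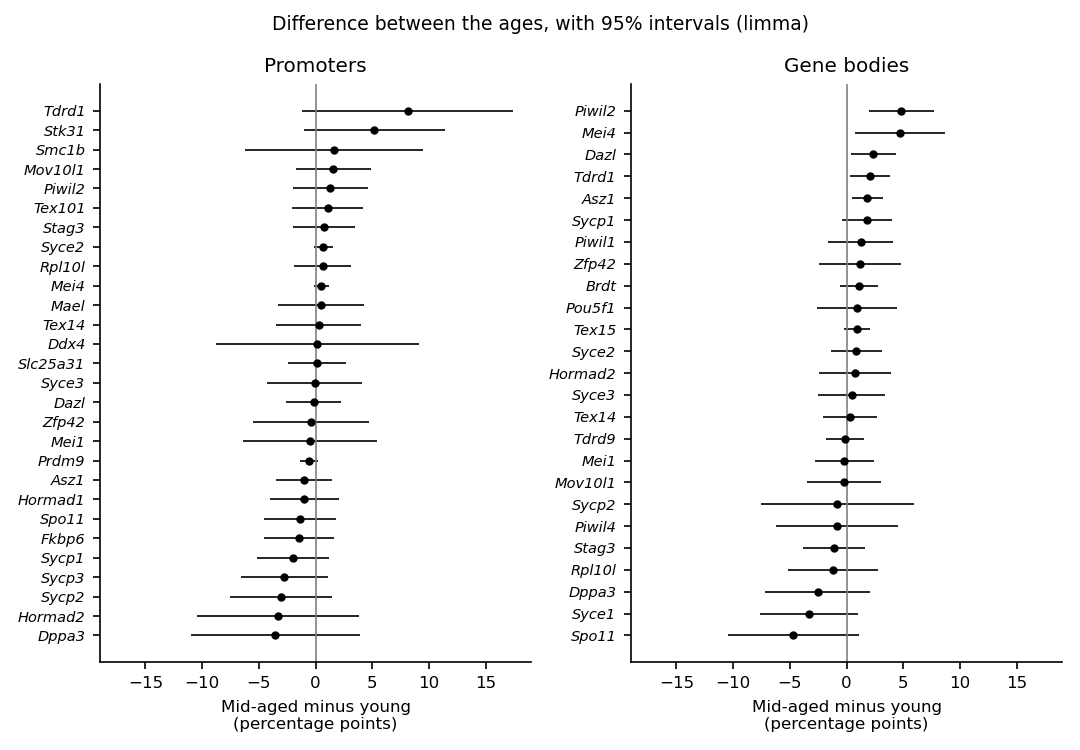
Difference in methylation between mid-aged and young mice (percentage points, x axis, mid-aged minus young) with 95% intervals from limma, for 28 promoters (left) and 25 gene bodies (right). Every promoter interval contains 0, and those of Piwil2, Mei4, Dazl, Tdrd1 and Asz1 among gene bodies do not before adjustment.

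Other lists of genes were set beside the members, and their counts of calls are to be read against 0.163% of all CpGs and 0.694% of all gene bodies. Of the other germline genes, 37 of 66 had a measured promoter, with 14 at 80% or more, 8 between and 15 at 20% or less and a median of 55.4%. Their 1349 tested CpGs held 1 call, in Taf7l, a testis form of a TFIID subunit, at position 86, with 68.7%, 74.3%, 71.7% and 75.7% in mid-aged and 91.5%, 89.8%, 82.5% and 83.0% in young mice (difference -14.1 points, adjusted p = 0.0306). Of the other pluripotency genes, 19 of 26 had a measured promoter, 15 of them at 20% or less, with a median of 3.59%. Their 1464 tested CpGs held 1 call, in Klf2 at position 1894, and the gene body of Klf2 was called as well, 1 of 21 measured. The called CpG of Klf2 had 67.7% in mid-aged and 50.4% in young mice on average (difference 17.3 points, quasi-binomial model, adjusted p = 0.0329). The genes listed here as repressors of germline genes, among them PRC1.6 subunits, DNA methyltransferases and Zbtb16, had 21 measured promoters of 22. All were at 20% or less, with a median of 1.34%. Their 1495 CpGs held 1 call, in Zbtb16 at position 105699, outside the promoter. This CpG had 22.2% in mid-aged and 62.3% in young mice on average (difference -40.1 points, adjusted p = 0.00144). The promoter of Zbtb16 had 9.19% in mid-aged and 8.07% in young mice and was not called (limma, adjusted p = 0.657).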

How the data were processed

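RRBS libraries of hepatocytes from 4 mid-aged and 4 young mice were analysed, with groups taken from the labels. Per the submitters' processing notes, the authors used Picard 1.115, SAMtools 1.3, BWA 0.6.2, Trim Galore 0.4.2 and FastQC with the mm10 genome. No source used here names the program that called methylation. The values deposited by the authors are counts of reads at each CpG, made by them from the aligned reads, and the percent of methylated reads. Counts of methylated and unmethylated reads were computed here from this read count and percent, and rounded to whole reads. The percent levels used here were recomputed from these counts after strands were summed.

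Strands were summed, and CpGs with 5 or more reads in every mouse were tested with a quasi-binomial model (F test, dispersion moderated with limma 3.58.1 and not below 1). Promoters, gene bodies and their difference within a mouse were tested with limma with trend on percent. Adjustment was by Benjamini-Hochberg over all features. Gene models were GENCODE vM21 on GRCm38, and sequences came from that genome. Python 3.11.15, numpy 2.4.6, scipy 1.17.1, pandas 2.3.3, matplotlib 3.10.9 and R 4.3.3 were used, and the tests were run on simulated data first. The p-values rest on the spread between mice, moderated over all features. For single CpGs this spread was not taken below counting error. PCR reads are not independent molecules.

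The members, lists and tests were chosen with earlier results of these data known. Values per mouse are given for the 5 highest and 5 lowest promoters, the 3 largest differences in each direction and 9 genes listed by name; the others named here serve to describe their group.

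Alternatives were the replicate number as a block, each mouse left out, minimums of 10 and 20 reads, limma on M values, other limits for a call, no moderation, a window of 500 bases on both sides, another start site, summed reads, their logit, and 1 or more CpGs per region.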

Additional observations from a re-analysis of the deposited data

Results flagged for a closer look

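In the gene body of Asz1, a germ granule protein of the piRNA pathway, young mouse 2 stood at 94.3%, while the other 3 young mice lay between 95.5% and 95.52%. Its gap to the nearest of them made up a share of 0.982 of the range of the group, above Dixon's critical value for 4 samples. This was 1 of 106 groups of 4 mice examined (0.94%), and chance alone marks about 1 in 20.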

How the results depend on the processing

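The count of 0 member promoters called between the ages was the same under all alternatives run. With a minimum of 10 reads, 1 gene body was called, that of Piwil2 (5.61 points, adjusted p = 0.0438). For member CpGs, leaving out each mouse in turn gave 0 to 1 call, the 1 without young replicate 4 in Sycp1 (chromosome 3, position 102936092, difference -13.3 points, adjusted p = 0.0484, against 0.158 with all mice), while calls over all CpGs ranged from 612 to 2405, against 1466 with all mice, and were 228 with limma on M values and 0 with no moderation. Calls over all gene bodies ranged from 35 to 75 with a mouse left out, against 96 with all, and were 146 with a minimum of 10 reads and 20 with reads summed. The causes of these changes were not tested.

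Promoter and gene body differed in 15 of 18 members, in 15 to 16 with a mouse left out and in 4 of 6 with a minimum of 20 reads, where fewer genes could be measured. Of the called differences, those of Dppa3 and Sycp1 turned sign and lost the call, at -0.36 points in Dppa3 with a minimum of 10 reads (14.4 otherwise) and 0.298 in Sycp1 with reads summed (-1.93 otherwise). The difference of Piwil2, 0.93 points and not called, was -1.32 with a minimum of 10 reads (adjusted p = 0.0074 by limma), -1.84 with reads summed, and -0.0744 to 1.34 with a mouse left out. That of Hormad2, 2.36 and not called, was called at 5.195 with a minimum of 10 reads and 7.47 with reads summed. The promoter difference of Smc1b between the ages ran from -0.325 without young replicate 1 to 5.12 without young replicate 2. Leaving out a mouse or summing reads also moved the promoter differences of Tdrd1, Stk31, Hormad2 and Dppa3 by over 1.5 times, with no change of sign and no call, and the gene body difference of Tdrd1 was 3.38 with a minimum of 10 reads (2.07 otherwise). The median member promoter level of 87.97% was 85.54% with a minimum of 10 reads, 85.86% with reads summed, 82.75% with the start site at the end of the gene and 87.23% to 88.41% with a mouse left out. It was 86.48% over all CpGs with reads, an alternative chosen after seeing the data, with 22 of 33 promoters at 80% or more. The count of 21 of 28 promoters at 80% or more was 20 to 21 with a mouse left out and 17 of 25 with a minimum of 10 reads.

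With the replicate number as a block, 0 of 969 member CpGs, 0 promoters and 0 gene bodies were called, with 1190 calls over all CpGs and 17 over all gene bodies. Deviations of mice with the same replicate number correlated at 0.0348, -0.0245, 0.0327 and 0.0633 over 1179 promoters of intermediate level, so the numbers were not taken to pair the mice.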
